A study of Mus musculus with 10 samples.

Results

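The 77 genes described here encode the voltage-gated, calcium- or sodium-activated and inward rectifier potassium channels of the mouse together with their auxiliary subunits. They were taken by name from the 24972 genes of the deposited gene tables: every Kcna, Kcnab, Kcnb, Kcnc, Kcnd, Kcne, Kcnf, Kcng, Kcnh, Kcnip, Kcnj, Kcnma, Kcnmb, Kcnn, Kcnq, Kcns, Kcnt and Kcnv gene is a member, whereas the two-pore Kcnk genes and the non-coding Kcnq1ot1 are not. The rule used no measured value, although it was set with earlier results of these data known. The animals were 10 C57BL/6 males, 2.5 months old: 5 labelled Atad3 nKO and 5 littermates labelled Atad3 control, with 1 library of cortical total RNA each. ATAD3A is a protein of the mitochondrial membranes, and the series is named for its part in the structure of the inner one. What nKO abbreviates, which exons were deleted and what drove the deletion are not in the labels. All the animals were perfused with ice-cold PBS before dissection, and they carried no other stated treatment.

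Potassium channels let potassium leave a neuron and so return it to rest after an action potential, set how fast it can fire and hold its resting potential. A channel is built from pore-forming subunits around a shared selectivity filter, and auxiliary subunits bound to them change trafficking, gating and inactivation. In the cortex, Kv1 and Kv7 channels are known for the control of excitability at the axon, Kv2 and Kv4 channels for the soma and dendrites, Kv3 channels for fast-spiking cells, and Kir channels for resting conductance and for inhibition through G proteins.

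The selectivity filter was searched for in the reference coding sequences of the pore-forming and the auxiliary members. The filter was taken as 5 codons: threonine or serine, then 1 of 7 residues, then glycine, then 1 of tyrosine, phenylalanine and leucine, and last glycine. It was found in the coding sequence of 62 of the 62 pore-forming members and of 0 of the 15 auxiliary members. The same search met 1.72% of 20391 other coding genes, so a match describes the letters and does not by itself mark a channel. The windows printed here are 45 bases long in GENCODE release M21 on GRCm38, written 5′ to 3′ on the coding strand with the 5 filter codons in capitals, and they show how the classes of the results differ. The Kcna2 window lies in exon 3 of 3 (chr3:107105209-107105253, plus strand) and the Kcnc1 window in exon 2 of 4 (chr7:46427958-46428002, plus strand). The Kcnh7 window lies in exon 8 of 16 (chr2:62777328-62777372, minus strand) and the Kcnh5 window in exon 7 of 11 (chr12:75087451-75087495, minus strand). The Kcnn3 window lies in exon 4 of 8 (chr3:89645497-89645541, plus strand), the Kcnj3 window in exon 2 of 4 (chr2:55437612-55437656, plus strand) and the Kcnj11 window in its only exon (chr7:46099481-46099525, minus strand).
Kcna2: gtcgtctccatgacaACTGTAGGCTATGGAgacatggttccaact
Kcnc1: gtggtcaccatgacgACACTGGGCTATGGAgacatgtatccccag
Kcnh7: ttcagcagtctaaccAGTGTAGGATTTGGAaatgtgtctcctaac
Kcnh5: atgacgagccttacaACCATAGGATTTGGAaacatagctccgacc
Kcnn3: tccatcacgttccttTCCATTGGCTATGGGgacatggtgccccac
Kcnj3: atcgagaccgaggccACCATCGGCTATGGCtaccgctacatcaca
Kcnj11: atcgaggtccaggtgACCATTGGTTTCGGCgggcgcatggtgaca
The fourth codon encoded tyrosine in 50 pore-forming members and phenylalanine in 12, which were the 8 Kcnh genes, the ATP-sensitive Kir subunits Kcnj8 and Kcnj11, and the sodium-activated Kcnt1 and Kcnt2. The second codon encoded valine in 30 members, among them all 8 Kv1 genes. It encoded leucine in the 4 Kv3 and 3 Kv4 genes and isoleucine in 25 members, including the 5 Kv7, 15 Kir and 4 Kcnn genes. Among the Kcnh genes, Kcnh5 alone had isoleucine there.

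The libraries held 14812639 to 24161361 estimated counts, and 14378 genes passed the count filter of edgeR. Atad3a stood at 28.2, 30.8, 33.5, 29.5 and 29.0 TPM (a read abundance scaled by transcript length and library size) in control 1 to 5 and at 15.2, 15.3, 18.8, 13.8 and 14.8 TPM in nKO 1 to 5, without overlap. Its log2 fold change was -1.04 (SE 0.12), with an adjusted p of 0.00634 in the quasi-likelihood test of edgeR. The summed TPM of cell type and neighbouring region markers overlapped between the genotypes in 11 of 12 lists: excitatory neuron markers summed to 1629 to 2357 TPM in control and 2222 to 2480 in nKO, inhibitory neuron markers to 989 to 1190 and 1162 to 1240.3, astrocyte markers to 1885 to 2053 and 1987 to 2237, and choroid plexus markers to 2.81 to 6.16 and 3.55 to 4.43. The 6 hippocampus markers did not overlap, at 38.7 to 59.8 TPM in control and 60.1 to 67.8 in nKO. Of the 69 marker genes tested, 11 (15.9%) had an unadjusted p under 0.05 in edgeR, where 5.65% of all genes did. Among them was Prox1, a transcription factor of the dentate gyrus and of some inhibitory neurons. On the log2 scale it changed by 0.34 (SE 0.10), and its CPM values were without overlap. Tbr1, which marks deep-layer excitatory neurons, was another, at 0.57 (SE 0.14). The 9 excitatory markers went both ways, 5 higher and 4 lower in nKO with a median of 0.02, and Fezf2 stood at -0.07 (SE 0.24). By the same measure 1 astrocyte marker was higher and 7 were lower, although the mean TPM sum of that list was higher in nKO. None of the listed marker genes was at 0 in all libraries, and none passed the adjusted threshold; the part of cell makeup in the channel values was not tested. The running numbers in the sample names are 1 to 5 for control and 6 to 10 for nKO. The labels do not say what these numbers record. If they follow the order of handling, that order and the genotype cannot be told apart.

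Control cortex expressed most of the channel genes. Of the 77 members, 62 had a mean of at least 1 TPM in control, 41 of at least 20, 29 of at least 50 and 16 of at least 100. TPM is per length, so levels of different genes can be set side by side. The highest was Kcnab2, a cytoplasmic beta subunit of Kv1 channels, at 254, 239.9, 203, 269 and 252 TPM in control 1 to 5 (mean 243 ± 24.9, SD, n = 5). It was above the gene next in order, Kcnj3, in 4 of 5 control libraries.

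Behind it stood a closely spaced group. Kcnj3, a subunit of the G protein-gated Kir3 channels, had 178 ± 21.8 TPM (SD, n = 5), and Kcnv1, an electrically silent subunit that modifies Kv2 channels, had 178 ± 19.7. Kcnma1, the pore of the large-conductance calcium-activated BK channel, had 171 ± 12.6, and Kcnj9, another Kir3 subunit, had 153 ± 19.0. The strong inward rectifier Kcnj4 reached 149 ± 14.6 TPM and the ERG channel Kcnh7 131 ± 16.3. The calcium-binding Kv4 partner Kcnip3 had 127 ± 9.09 TPM, the neuronal BK beta subunit Kcnmb4 118 ± 23.6, the sodium-activated Kcnt2 114 ± 9.12 and the delayed rectifier subunit Kcna2 109 ± 9.09. In this order, neighbours were mostly not separable: of the 20 neighbouring pairs from the top, only Kcnma1 over Kcnj9 was higher in 5 of 5 control libraries. The other neighbours did not differ in a fixed direction across the animals.

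**Figure D1:**
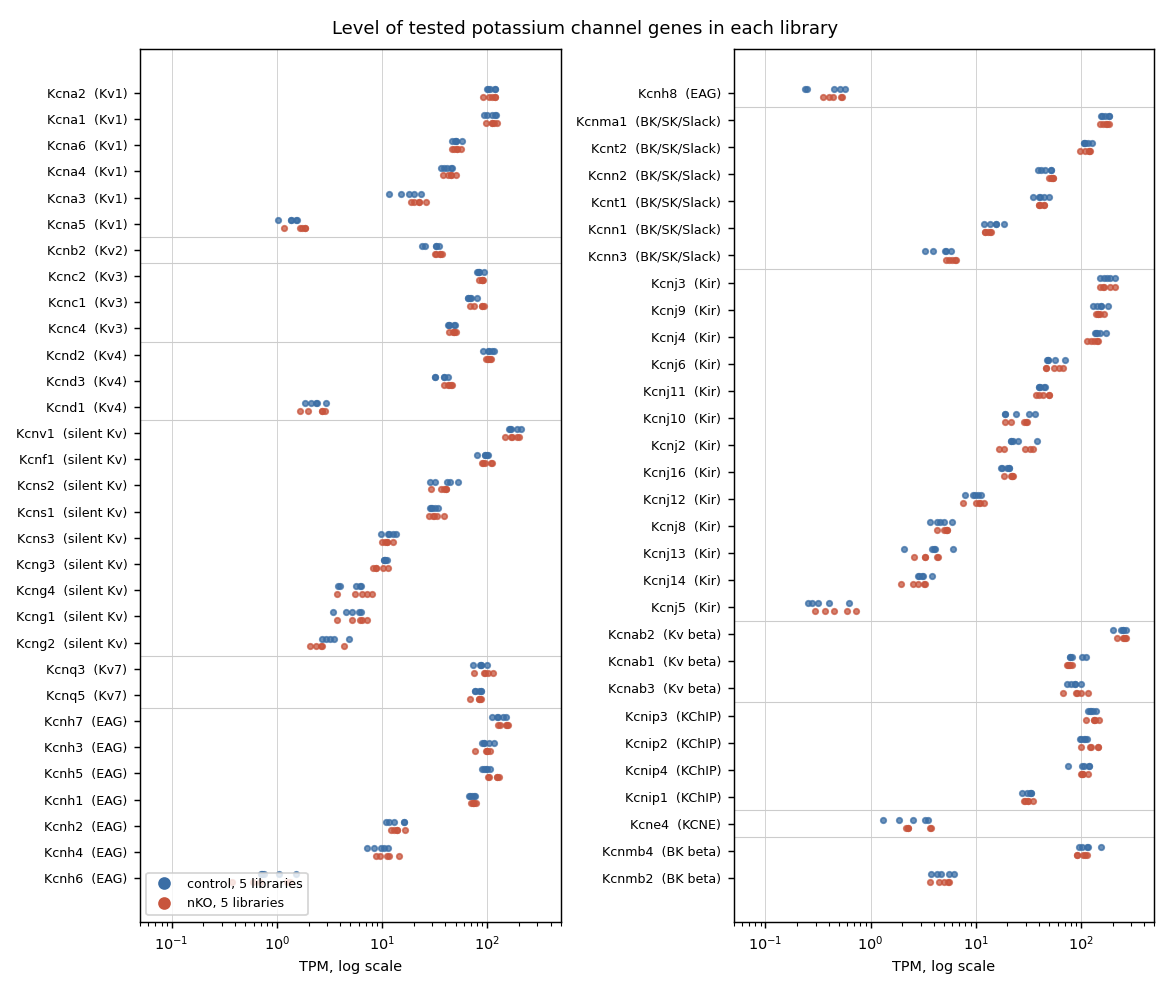
Level of 61 of the 65 tested channel genes in each library, in TPM on a log axis, with control points in blue and nKO points in red, grouped by class. Kcnab2 lies at the right end, Kcnh6, Kcnh8 and Kcnj5 lie around or under 1 TPM, and the control and nKO points of each gene overlap.

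By class, summed over members, the 15 Kir genes took 17.2% of all channel TPM in control, the 8 EAG, ERG and ELK genes (Kcnh) 10.9%, the 3 Kv beta genes 10.8% and the 7 BK, SK and Slack genes (Kcnma, Kcnn, Kcnt) 10.1%. The 10 silent Kv genes (Kcnf, Kcng, Kcns, Kcnv) held 9.74%, the 4 KChIP genes (Kcnip) 9.50%, the 8 Kv1 genes 8.45% and the 5 Kv7 genes 7.80%. The smaller shares were those of Kv3 at 5.53%, Kv4 at 3.69%, the BK beta genes at 3.15% and the KCNE genes at 0.08%. Some classes rested on a single gene: Kcnmb4 made up 95.8% of the BK beta TPM, Kcne4 78.2% of the KCNE TPM and Kcnd2 72.9% of Kv4. Others were spread more evenly, such as Kir, where Kcnj3 led with 26.6%, and EAG, where Kcnh7 led with 30.9%.

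The spread between control animals was like that of other genes. Over the 41 members of at least 20 TPM, the median coefficient of variation of TPM was 10.5%, against 10.8% over 8053 genes above the same level. The steadiest was the EAG channel Kcnh1 at 4.94%, and the Kv3 gene Kcnc2 was at 5.89%. The most variable were Kcnj10, the Kir4.1 subunit known from astrocytes, at 29.5%, and the strong inward rectifier Kcnj2 at 27.8%. Kcnj10 was at 36.3, 24.2, 32.2, 19.2 and 19.2 TPM in control 1 to 5 and at 28.7, 19.1, 30.7, 29.8 and 21.5 in nKO 1 to 5. Its high values fell in control 1 and 3 and in nKO 1, 3 and 4, and the genotypes overlapped.

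The 12 members that did not pass the count filter were Kcna7, Kcna10, Kcne1, Kcne2, Kcne3, Kcnj1, Kcnj15, Kcnmb1, Kcnmb3, Kcnn4, Kcnq1 and Kcnv2. None of them exceeded 8.05 estimated counts in any library. Several are known from other tissues, such as Kcne1 and Kcnq1 from heart and inner ear and Kcnj1 from kidney. Kcnn4, a calcium-activated channel known from blood cells, had at least 1 count in 4 libraries, all of them control, with at most 3.02 counts. When all 77 members were fitted without the count filter, 6 (7.79%) had an unadjusted p under 0.05 in edgeR, where 4.89% of all genes did, and Kcnn4 was the only one of the 12 among them. The adjusted threshold was passed by 0 members in that fit, with a smallest adjusted p of 0.821.

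Channel genes that neighbour each other in the genome could stand at widely different levels. In the RefSeq annotation of GRCm38.p6, 8 pairs of members lay within 100 kb of each other. Kcna3 and Kcna2 lie on chromosome 3 with 52.8 kb between them and had 17.7 ± 4.51 and 109 ± 9.09 TPM in control (SD, n = 5), and Kcna10, 68.1 kb beyond Kcna2, had 0.05 ± 0.04. Kcnj9 and Kcnj10, 11.9 kb apart on chromosome 1, had 153 ± 19.0 and 26.2 ± 7.74 TPM. Only 1 pair overlapped: Kcnmb1, a BK beta subunit known from smooth muscle, lies within Kcnip1 on the other strand of chromosome 11. The kit keeps strand, and Kcnmb1 stayed at 0.17 ± 0.10 TPM beside 31.7 ± 2.69 TPM of Kcnip1.

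Atad3 nKO cortex showed no channel gene past the adjusted threshold. Of the 65 tested members, 0 had an adjusted p under 0.05 in the quasi-likelihood test of edgeR, where 0.0139% of the 14378 genes tested did (2 genes, 1 of them Atad3a). The smallest adjusted p of a member was 0.820. DESeq2 also called 0 members, where it called 5 genes in all (0.0348%). By the unadjusted p of edgeR, 4 members (6.15%) were under 0.05, against 5.65% of all genes tested, so their share was near the background. Of all genes, 3.36% were under it with a higher and 2.29% with a lower value in nKO. By the unadjusted p of DESeq2 the members were 5, against 5.82% of all genes. In bulk tissue, fewer cells of a type and less RNA per cell cannot be told apart.

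The intervals show which sizes of change the data still allow. For 46 of the 65 tested members (70.8%), the 95% interval of the fold change lay within 1.5-fold in either direction, against 75.7% of all genes tested. For 63 it lay within 2-fold, against 94.9% of all genes, with the low-abundance Kcnh6 and Kcnj5 as the exceptions. Narrow intervals were found among abundant genes: Kcnh1 had -0.02 on the log2 scale (95% interval -0.15 to 0.12), Kcnc2 0.02 (-0.13 to 0.17), Kcnma1 -0.04 (-0.20 to 0.13) and Kcnd2 -0.07 (-0.22 to 0.08). The tested members had a median log2 fold change of -0.02 against -0.01 over all genes, and a median absolute log2 fold change of 0.10 against 0.10. Of them, 26 had a value above 0 and 39 (60%) a value below 0, where 47.8% of all genes lay above and 52.2% below 0. This balance depended on the processing: with effective lengths as offsets 32 of the 65 lay above 0, where 48% of all genes did, and without control 1 and nKO 4 it was 39 of 64, where again 48% of all genes did.

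**Figure D2:**
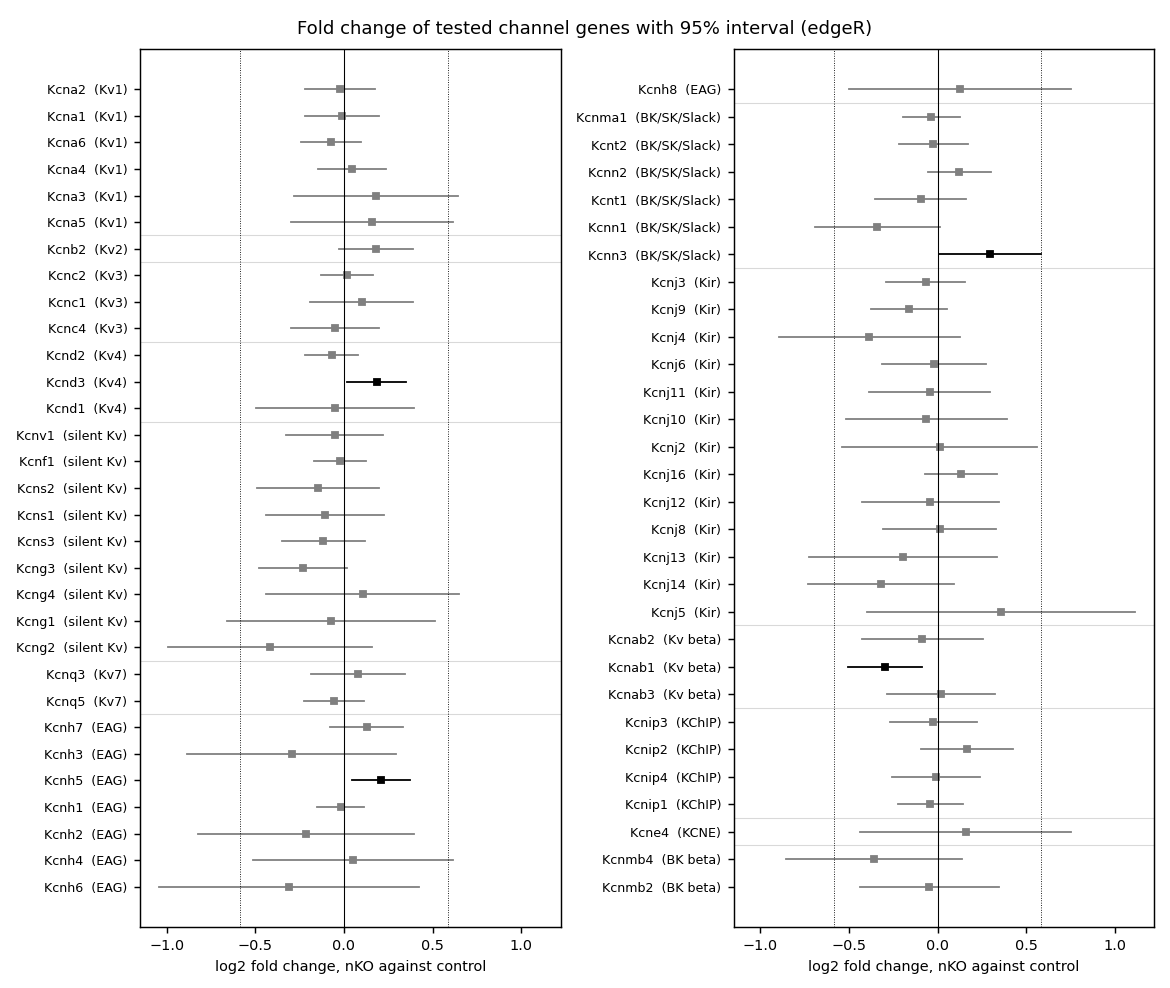
The log2 fold change of nKO against control for 61 of the 65 tested channel genes, with the 95% interval of edgeR; black marks an unadjusted p under 0.05 and dotted lines mark 1.5-fold. Of the 61 intervals, 43 lie between the dotted lines, and the 4 black ones belong to Kcnab1, Kcnd3, Kcnh5 and Kcnn3.

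Kcnab1 had the smallest unadjusted p of the channel genes. It encodes a Kv1 beta subunit that can confer fast inactivation, and lies at chr3:64949212-65378225 of GRCm38.p6. In CPM, the count of a gene scaled by the TMM-normalized size of its library, it was at 112, 124, 139, 102 and 96.6 in control 1 to 5 and at 96.1, 87.1, 100.01, 90.1 and 93.1 in nKO 1 to 5. Control 1, 2, 3 and 4 lay above every nKO library, and control 5 lay below nKO 3. The log2 fold change was -0.30 (SE 0.10; unadjusted p = 0.00904 and adjusted p = 0.820, edgeR). Without any single library it lay between -0.35 and -0.22. Of the other Kv beta genes, Kcnab2 had -0.09 (SE 0.16) and Kcnab3 0.02 (SE 0.14).

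Kcnh5, Kcnd3 and Kcnn3 had higher means in nKO at an unadjusted p under 0.05. Kcnh5, an EAG channel of the voltage-gated family (chr12:74897217-75177332), was at 139.9, 137, 129, 136 and 144 CPM in control and at 176, 139.6, 166, 166 and 145 CPM in nKO. nKO 1, 3 and 4 stood clear of all control libraries, nKO 5 lay level with control 5, and nKO 2 lay within the control range. The log2 fold change was 0.21 (SE 0.08; unadjusted p = 0.0173 and adjusted p = 0.820, edgeR). The closest relative of Kcnh5, Kcnh1, had -0.02 (SE 0.06).

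Kcnd3, a pore of the A-type current Kv4 (chr3:105451890-105674002), was at 87.4, 102, 81.2, 97.8 and 93.7 CPM in control and at 103, 110.4, 96.4, 109 and 107 CPM in nKO. Control 1, 3 and 5 lay below every nKO library, whereas control 2 and 4 lay above nKO 3. Its log2 fold change was 0.19 (SE 0.08; unadjusted p = 0.031 and adjusted p = 0.820, edgeR). Kcnd2, which holds most of the Kv4 TPM, had -0.07 (SE 0.07).

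Kcnn3, a small-conductance calcium-activated channel (chr3:89520164-89672494), was a low-abundance gene, at 10.4, 16.5, 11.3, 15.3 and 14.6 CPM in control and at 15.5, 18.04, 14.8, 18.004 and 17.1 CPM in nKO. Control 1 and 3 were the lowest libraries, and control 2 and 4 lay within the nKO range. Its log2 fold change was 0.30 (SE 0.13; unadjusted p = 0.0454 and adjusted p = 0.820, edgeR). The other Kcnn genes had values in both directions, -0.34 (SE 0.16) for Kcnn1 and 0.12 (SE 0.08) for Kcnn2. Kcnn1 was under an unadjusted p of 0.05 in DESeq2, and in edgeR with effective length offsets or without the count filter. Leaving out 1 library took the unadjusted p as high as 0.0557 for Kcnh5, 0.0746 for Kcnd3 and 0.105 for Kcnn3, and to 0.0254 for Kcnab1.

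**Figure D3:**
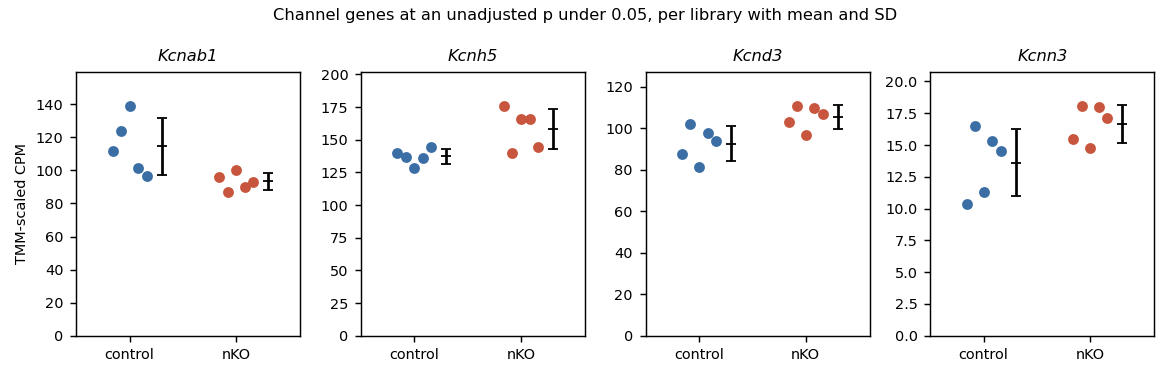
TMM-scaled CPM of the 4 channel genes with an unadjusted p under 0.05, 1 point per library, with the mean and SD of each genotype beside the points and the axis starting at 0. In each panel the control and nKO points overlap, Kcnab1 being lower and the other genes higher in the mean of nKO.

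The members given next, most of them leading their class in level or in p, had log2 fold changes from -0.32 (Kcnj14) to 0.17 (Kcnip2). Among Kv1 genes, the log2 fold change was -0.02 (SE 0.09) for Kcna2 and, for the delayed rectifier Kcna6, -0.07 (SE 0.08), and the Kv7 gene Kcnq5 had -0.06 (SE 0.08). The ERG channel Kcnh7 had 0.13 (SE 0.10), the silent subunit Kcnv1 -0.05 (SE 0.13) and the sodium-activated Kcnt2 -0.02 (SE 0.09). Among the Kv4 partners, Kcnip2 had 0.17 (SE 0.12) and Kcnip3 -0.02 (SE 0.11), and the auxiliary Kcne4 had 0.16 (SE 0.28). Within Kir, the G protein-gated Kcnj3 and Kcnj9 had -0.07 (SE 0.10) and -0.16 (SE 0.10), the ATP-sensitive Kcnj8 and Kcnj11 0.01 (SE 0.15) and -0.04 (SE 0.16), and Kcnj14 -0.32 (SE 0.19). None of these had an unadjusted p under 0.05, which does not show that they are equal in both genotypes.

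No tested member had CPM values without overlap between the genotypes, where 1.38% of all genes did. In TPM the count was again 0 of 65, where 2.56% of all genes did not overlap. The Kv2 gene Kcnb2, a delayed rectifier of the soma, had a log2 fold change of 0.18 (SE 0.10; adjusted p = 0.820, edgeR). TPM values were higher in nKO for most genes, 64.6% of the tested members and 64.2% of all genes tested, and the median log2 ratio of mean TPM was 0.05 for both.

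In the class sums, Kv3, which serves fast-spiking cells, summed to 215 ± 5.96 TPM in control and 239.6 ± 16.2 in nKO (SD, n = 5 each), and the BK beta genes to 123 ± 22.6 and 108 ± 9.57. The Kir sum was 670.1 ± 47.4 in control and 653 ± 37.8 in nKO, and the silent Kv sum 379 ± 31.9 and 379 ± 36.0. Within the silent Kv class, 8 of 9 tested genes had a log2 fold change below 0. The median was -0.11 from counts and -0.07 with effective lengths as offsets. From counts, 0 were under the unadjusted threshold, whereas Kcng3 was under it with the offsets and without control 1 and nKO 4. The lowest p there was that of Kcng3, with 12.02, 10.4, 10.5, 10.7 and 10.9 CPM in control and 7.99, 8.46, 9.85, 11.4 and 8.75 CPM in nKO. nKO 4 lay within the control range and the other nKO libraries below it, with a log2 fold change of -0.23 (SE 0.12; adjusted p = 0.820, edgeR). Summed over all 77 members, channel TPM was 3892 ± 85.1 in control and 4008 ± 147 in nKO.

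**Figure D4:**
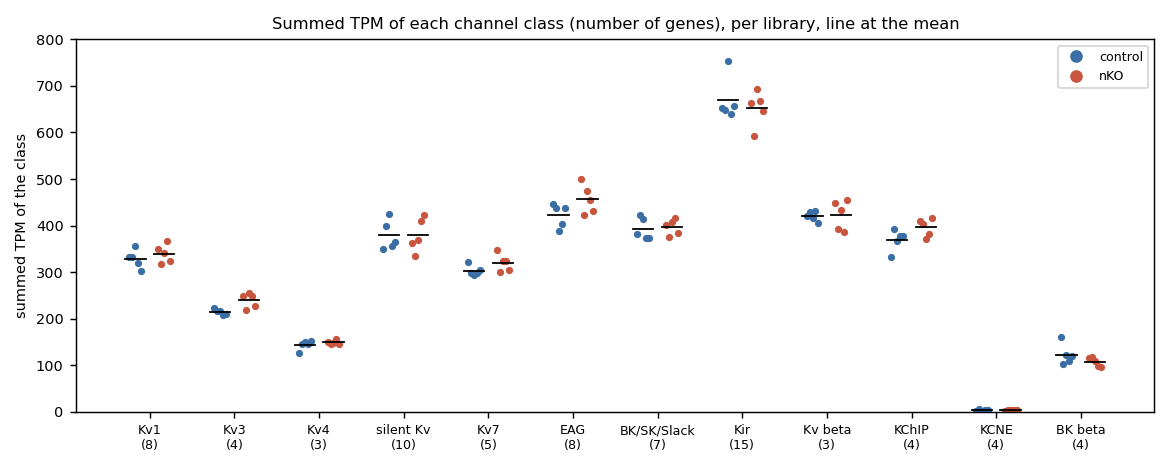
Summed TPM of 12 of the 13 channel classes in each library, with the number of genes below the class name and a line at the mean of each genotype. In the Kir class 1 control library stands at 754, above the other libraries of both genotypes.

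Several fold changes of GC-rich channel genes rested on 2 libraries. The deposited effective lengths, by which Salmon corrects a transcript's length for sequence bias, differed between libraries with the GC content of the gene. For Kcnh3, an ELK channel with a GC content of 61.2%, the effective length was 3189 bases in control 1 and 1471 in nKO 4, with 1769 to 2149 in the other libraries. Across the 65 tested members, Spearman's rho between GC content and effective length relative to the median library was 0.90 in control 1 and -0.91 in nKO 4. Such a relation was not particular to these libraries. In the others rho ran from -0.88 in nKO 5 to 0.89 in nKO 2, and it was weakest in control 4 at -0.34. The relative length itself reached its highest, 1.62, in control 1 and its lowest, 0.721, in nKO 4. The members share these libraries, so the values are a description. Control 1 and nKO 4 also lay at opposite ends of the first principal component of all genes, which held 33.6% of the variance.

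Kcnj4 is given as an example of a single gene, and the part of effective length in its values was not tested. It was at 140.4, 63.9, 63.7, 71.6 and 79.0 CPM in control and at 75.3, 71.0, 74.2, 41.7 and 58.3 CPM in nKO, with control 1 far above the rest and nKO 4 lowest. The log2 fold change was -0.38 (SE 0.23). With effective lengths as offsets it was -0.24 (SE 0.10), at an unadjusted p under 0.05 in edgeR. Without control 1 and nKO 4 it was -0.01 (SE 0.10). Kcnmb4 was at 53.2 CPM in control 1 against 21.7 to 27.7 in the other control libraries. In TPM, which is scaled by effective length, it was still at 157 against 95.6 to 117. Its log2 fold change went from -0.36 (SE 0.23) to 0.00 (SE 0.11) without control 1 and nKO 4. The log2 fold change of the KChIP gene Kcnip2 also rose, from 0.17 (SE 0.12) to 0.30 (SE 0.10), and so moved away from 0.

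Over the 7 members with at least 60% GC, the median log2 fold change was -0.21 from counts and -0.03 with effective length offsets, and the median SE went from 0.27 to 0.15. Over the 13 members under 45% GC the medians were -0.01 and -0.04. With these offsets 7 members (10.8%) were under an unadjusted p of 0.05, where 9.7% of all genes were, and without control 1 and nKO 4 the count was 11 of 64 (17.2%), where 9.12% of all genes were. Kcnab1, Kcng3 and Kcnh5 were among them in both. Kcnd3 and Kcnn3 were among the 7 but not among the 11. In either setting 0 members passed the adjusted threshold, with smallest adjusted p values of 0.441 and 0.496 in edgeR. Kcnc1, Kcnh4, Kcnip2, Kcnip4 and Kcnj13 were also among the 11. Kcnab1 and Kcnh5 have a GC content of 44.4% and 49.6%, and their log2 fold changes stayed near those from counts, at -0.29 and 0.20 with the offsets and -0.30 and 0.19 without the 2 libraries.

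**Figure D5:**
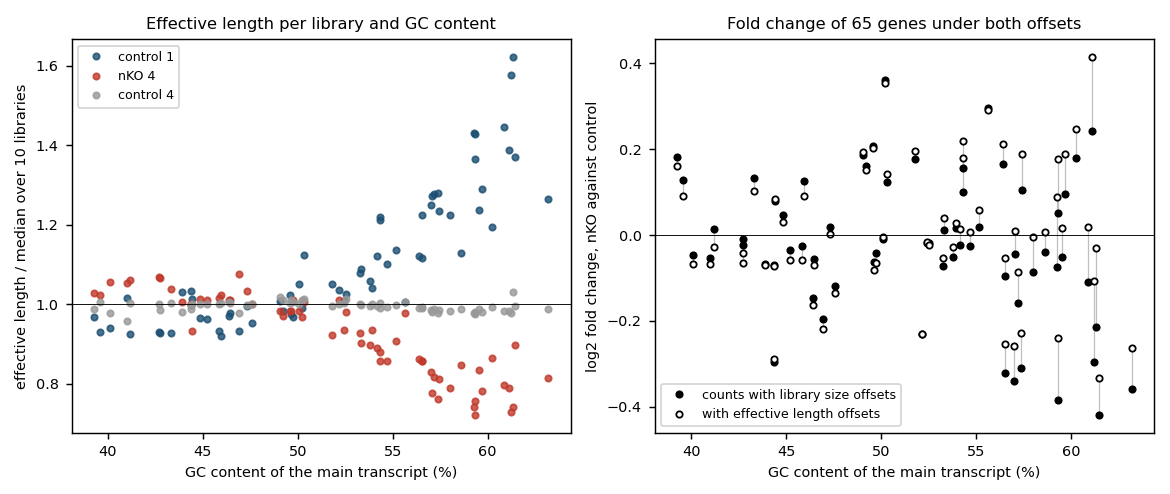
Left, effective length of each of the 65 tested channel genes relative to its median over 10 libraries, against GC content, in control 1, nKO 4 and, for comparison, control 4; right, log2 fold change of the same genes from counts (filled) and with effective length offsets (open). Control 1 rises to 1.62 and nKO 4 falls to 0.721 among GC-rich genes, where the open and filled points lie furthest apart.

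Transcripts of 22 members could be tested for a change in their proportions. By the Simes test of diffSpliceDGE in edgeR, none had an adjusted p under 0.05, where 0.0211% of the 4732 genes tested did. In that test 0 members were under an unadjusted p of 0.05, against 0.38% of all genes. By the F test of diffSpliceDGE, 1 member, Kcnc4, had an unadjusted p under 0.05, where 189 of the 4732 genes did. The unadjusted p of the Simes test crowded near 1, with a median of 0.91 over all genes. It recovered few of the changed genes on simulated data, so its counts of 0 do not show that the proportions were equal. By limma's diffSplice, 0 passed the adjusted threshold and 2, Kcnc4 and Kcnj8, were under the unadjusted one, against 8.96% of all genes. Kcnc4, which encodes the A-type Kv3 channel Kv3.4, was the only one of the 22 whose leading transcript held shares without overlap, where 0.824% of all genes tested did. Transcript NM_145922 made up 58.9, 55.9, 57.6, 58.4 and 51.5% of Kcnc4 TPM in control 1 to 5 and 63.8, 61.3, 64.2, 70.2 and 68.7% in nKO 1 to 5. The means were 56.5% ± 3.01 in control and 65.6% ± 3.68 in nKO (SD, n = 5 each), with an adjusted p of 0.5 by limma's diffSplice, and the Kcnc4 total stayed at 45.2 ± 3.31 and 47.5 ± 2.62 TPM.

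For the leading transcripts of Kcnma1 and Kcnc1 the shares differed by less than the SD between animals. Kcnma1, with 22 transcripts listed, drew 53.2% ± 2.06 of its TPM from NM_001253369 in control and 54.4% ± 1.49 in nKO (SD, n = 5 each). Smaller shares of Kcnma1 differed by more than the SD of either genotype: NM_001253360 held 9.27% ± 1.94 in control and 6.69% ± 0.94 in nKO, and NM_001253376 held 18.3% ± 1.76 and 20.1% ± 1.32. The adjusted p of Kcnma1 was 0.579 by limma's diffSplice. Kcnc1 drew 61.5% ± 2.30 and 61.7% ± 3.598 from NM_001112739. For Kcnj8, a pore subunit of ATP-sensitive channels in blood vessels, the estimated share of NM_001330363 ran from 0 to 100% in control and from 19.8 to 100% in nKO. Its total was 4.70 ± 0.86 TPM in control (SD, n = 5).

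The partner genes of the channels gave a like picture. Of 33 listed partners, 31 were tested, with 17 log2 fold changes above and 14 below 0 and a median of 0.01, and 0 passed the adjusted threshold of edgeR. The unadjusted p of edgeR was under 0.05 for 2 of the 31, where it was for 5.65% of all genes tested. Gnb1, a G protein beta subunit that opens Kir3 channels, had 480.0 ± 87.6 TPM in control and 579 ± 21.1 in nKO (SD, n = 5 each), with a log2 fold change of 0.23 (SE 0.10; adjusted p = 0.820, edgeR). Kcnrg, a regulator of Kv1 assembly, had 0.71 ± 0.18 and 1.17 ± 0.35 TPM and a log2 fold change of 0.67 (SE 0.30; adjusted p = 0.820, edgeR). The most abundant partner, the calmodulin gene Calm2, which senses calcium for SK and Kv7 channels, had a value of 0.01 (SE 0.08). Lrrc52, a BK gamma subunit known from testis, was at 0 in all libraries.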

How the data were processed

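Per the labels' protocols, total RNA of 10 mouse cortices (5 control, 5 Atad3 nKO) was treated with DNase and made into stranded total RNA libraries with 6 minutes of fragmentation. Tools in the submitters' processing notes are Salmon, bcl2fastq and DESeq2, with the build mm10; versions and settings are not given in the sources used here. The authors deposited per library estimated counts, TPM and effective lengths, for genes and for transcripts. A deposited table of scores for 22 genes holds 0 channel genes and was not used.

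Estimated counts were rounded and tested with edgeR 4.0.16 (R 4.3.3): filterByExpr (minimum count 10), TMM, glmQLFit with robust estimation, two-sided glmQLFTest, Benjamini-Hochberg adjustment over 14378 genes. The called threshold was an adjusted p under 0.05. Transcript usage was tested with diffSpliceDGE, and with limma 3.58.1 diffSplice, an alternative chosen after the data were seen. Transcripts were joined to genes by RefSeq identifier, and the transcript counts of all 77 members summed to their gene counts within 2 reads. Salmon divides reads of similar transcripts by estimation, so values of near-identical genes and of single transcripts are less certain than gene totals. Scripts were tested on simulated data. TPM served for levels and class sums, with no test. The genotype groups came from the labels, each library being a separate animal.

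Genes named with values were the 12 highest members in control, the highest and the lowest-p member of each class, every member at an unadjusted p under 0.05 or without overlap, and those with the 4 smallest transcript usage p-values. Some of these genes, and 1 class sum in which the libraries of the genotypes did not overlap, are not reported here. Further genes were picked with their values in view. The members and lists were chosen with earlier results of these data known. Alternatives were other normalizations, filters and tools (DESeq2 1.42.0, limma-voom), effective length offsets, a length trend, leaving out each library in turn, and leaving out control 1 and nKO 4 together.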

Additional observations from a re-analysis of the deposited data

Results flagged for a closer look

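In 82 groups of 5 libraries, the gap of the highest or lowest library to its nearest neighbour was set against the group's range, and 3 groups had a gap above 0.71 of it. Chance gives about 1 in 20 groups. Kcnq5, a Kv7 subunit, was at 68.5 TPM in nKO 2 and at 82.8 to 87.5 in the other nKO libraries. The Kir sum was 754 TPM in control 3, against 640.2 to 656 in the other controls, with Kcnj3, Kcnj9, Kcnj6 and Kcnj2 all at their highest control value there. The Kv4 sum was 125.4 TPM in control 1, against 145 to 153 in the others.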

How the results depend on the processing

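Of 826 comparisons of a result with an alternative setting, 786 kept their direction and side of the threshold. The number of channel genes past the adjusted threshold was 0 in every setting tried, with a smallest adjusted p of 0.441, and the log2 fold change of Atad3a lay between -1.15 and -0.93 with a largest adjusted p of 0.0471. The DESeq2 Wald test called 5 genes of all in place of 2. The count of members at an unadjusted p under 0.05 was 7 with effective length offsets, 11 without control 1 and nKO 4, and 2 to 6 with 1 library left out, the lowest without control 3 and without nKO 5.
The median log2 fold change of the tested members was 0.058 without control 1 and nKO 4, in place of -0.02. Of the 28 named genes, 17 kept their sign in all 20 settings. Without control 1 and nKO 4 the sign turned for Kcnab2 (0.13), Kcnc2 (-0.0042), Kcnc4 (0.083), Kcnip3 (0.11), Kcnj11 (0.17) and Kcnmb4 (0.0033). With effective length offsets it turned for Kcnc4 (0.016), Kcnip3 (0.0060) and Kcnj11 (0.0084). Subtracting the length trend turned Kcnc2 (-0.023), and scaling by library size alone turned Kcnj8 (-0.0012). With 1 library left out, the log2 fold change ran from -0.076 to 0.030 for Kcna2, -0.18 to 0.047 for Kcnab2, -0.0088 to 0.054 for Kcnc2, -0.11 to 0.039 for Kcnc4, -0.016 to 0.30 for Kcne4, -0.093 to 0.059 for Kcnip3, -0.13 to 0.064 for Kcnj11, -0.069 to 0.094 for Kcnj8, -0.069 to 0.029 for Kcnt2 and -0.13 to 0.034 for Kcnv1. The cause of these turns was not tested. No paired analysis was possible because the labels give the genotypes no shared replicate numbers. For the 12 members under the count filter, and for Kcnh6 and Kcnj5, depth limits what can be seen.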
